A study of Homo sapiens with 6 samples.

Results

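Mesenchymal transcription factors were followed by RNA-seq in SH-SY5Y, a human neuroblastoma cell line of sympathetic neural crest origin. The set is SNAI1, SNAI2, TWIST1, TWIST2, ZEB1, ZEB2, PRRX1, FOXC1, TBX18 and TCF4, taken by gene symbol from the deposited gene table, each gene once. Of these 10 genes 9 had a row among the table's 20668 genes, and the same 9 passed the filter on low counts among 16403 genes tested. PRRX1 had no row and was followed in the transcript files. There were 3 libraries from DNAJC12-KO cells, made by CRISPR/Cas9 knockout of the co-chaperone gene DNAJC12, and 3 from WT cells, all untreated. The series' design names cell invasion as the question. The labels do not say whether the DNAJC12-KO cells were 1 clone or several, nor whether replicates came from separate cultures, so the spread behind each p-value may be a technical one. DNAJC12 itself had 5.54 ± 0.60 CPM (counts scaled to the library total) in DNAJC12-KO libraries, against 21.5 ± 1.5 CPM in WT libraries (SD, n = 3 each).

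Among these proteins, the SNAI, ZEB and TWIST factors are the best known drivers of epithelial-mesenchymal transition. In this transition cells lose their junctions, gain mesenchymal genes and become motile. In the embryo several of the proteins act when neural crest cells leave the neural tube. SNAI and ZEB proteins are zinc finger factors that bind E-box DNA and repress epithelial genes such as CDH1 (E-cadherin). TWIST proteins are basic helix-loop-helix (bHLH) factors that bind E-boxes as dimers, often with E proteins, and TCF4 encodes an E protein. PRRX1 (a homeobox factor), FOXC1 (a forkhead factor) and TBX18 (a T-box repressor) are factors of mesenchymal progenitors. In neuroblastoma, PRRX1 and several of the others mark a mesenchymal cell state that is set apart from the adrenergic state typical of SH-SY5Y.

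RefSeq promoter windows were found for 7 of the 10 genes (GRCh38.p14). Each runs from 250 bases before to 50 bases after a transcript start. For the 4 genes with both a window and a changed RNA level, 1 window each is printed in the gene's own direction, to show whether the E-box letters that SNAI, ZEB and TWIST proteins read stand in the factors' own promoters. Capitals mark every CANNTG, which reads the same form on both strands.
ZEB1, chr10:31318966-31319265, plus strand: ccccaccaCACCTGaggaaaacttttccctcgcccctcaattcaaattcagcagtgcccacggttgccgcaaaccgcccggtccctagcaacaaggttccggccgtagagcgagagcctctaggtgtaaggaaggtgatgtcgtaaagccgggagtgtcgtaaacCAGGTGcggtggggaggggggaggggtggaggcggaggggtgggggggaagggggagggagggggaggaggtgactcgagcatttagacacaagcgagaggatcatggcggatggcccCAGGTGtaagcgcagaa
ZEB2, chr2:144520070-144520369, minus strand: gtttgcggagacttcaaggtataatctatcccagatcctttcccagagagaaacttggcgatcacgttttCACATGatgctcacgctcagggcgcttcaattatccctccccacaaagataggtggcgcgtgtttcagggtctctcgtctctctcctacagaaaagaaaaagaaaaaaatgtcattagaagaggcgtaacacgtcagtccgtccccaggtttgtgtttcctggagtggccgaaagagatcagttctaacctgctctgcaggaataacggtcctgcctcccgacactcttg
FOXC1, chr6:1609665-1609964, plus strand: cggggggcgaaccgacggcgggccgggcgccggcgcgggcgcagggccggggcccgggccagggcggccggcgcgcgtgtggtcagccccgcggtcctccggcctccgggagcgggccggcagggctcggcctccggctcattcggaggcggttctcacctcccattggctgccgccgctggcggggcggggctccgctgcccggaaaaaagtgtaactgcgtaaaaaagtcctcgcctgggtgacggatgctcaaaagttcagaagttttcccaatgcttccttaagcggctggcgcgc
TBX18, chr6:84764549-84764848, minus strand: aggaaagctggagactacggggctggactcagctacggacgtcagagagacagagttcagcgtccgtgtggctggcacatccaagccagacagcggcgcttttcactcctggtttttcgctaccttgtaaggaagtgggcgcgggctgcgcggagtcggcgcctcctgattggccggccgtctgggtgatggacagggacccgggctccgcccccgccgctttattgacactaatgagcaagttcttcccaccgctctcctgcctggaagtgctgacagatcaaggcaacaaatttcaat

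The ZEB1 window held 3 CANNTG, and all 3 read CACCTG or its reverse complement CAGGTG, the form that SNAI and ZEB proteins are known to bind. Among 35116 RefSeq promoters of the same length, 68.7% held a CANNTG, 20.6% held CACCTG or CAGGTG, and 0.635% held at least 3 of the narrower form. The ZEB2 window held CACATG alone, and the FOXC1 and TBX18 windows held no CANNTG. Over all 22 windows of the 7 genes, 12 held a CANNTG and 2, both of ZEB1, held the narrower form. The ZEB1 window shown is 1 of 7 RefSeq windows of that gene and was picked after the search. These matches describe letters in a window, not bound sites.

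Of the 9 factors tested, 4 were higher in DNAJC12-KO libraries (FOXC1, SNAI2, ZEB2 and ZEB1), 1 was lower (TBX18) and 4 did not pass the test (TWIST1, SNAI1, TCF4 and TWIST2), by edgeR's quasi-likelihood test at a Benjamini-Hochberg adjusted p under 0.05. Over all 16403 genes the same rule called 26.0%, with 14.5% higher and 11.5% lower in DNAJC12-KO. These were 2383 genes higher and 1887 lower, against 2055 higher and 2438 lower with library size as the only scaling. In 6 of the 9 the DNAJC12-KO and WT values did not overlap, 5 of them higher and 1 lower in DNAJC12-KO, and 41.7% of all genes tested had no overlap. The median log2 fold change of the 9 was 0.29, beside 9.19e-06 over all genes tested. TBX18 and SNAI2 differed by the most among the 9, in opposite directions. Libraries held 19845788, 21405492 and 21869659 counts in DNAJC12-KO and 20071795, 19321842 and 19418072 in WT, so that 3 counts stand for 0.137 to 0.155 CPM.

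**Figure D1:**
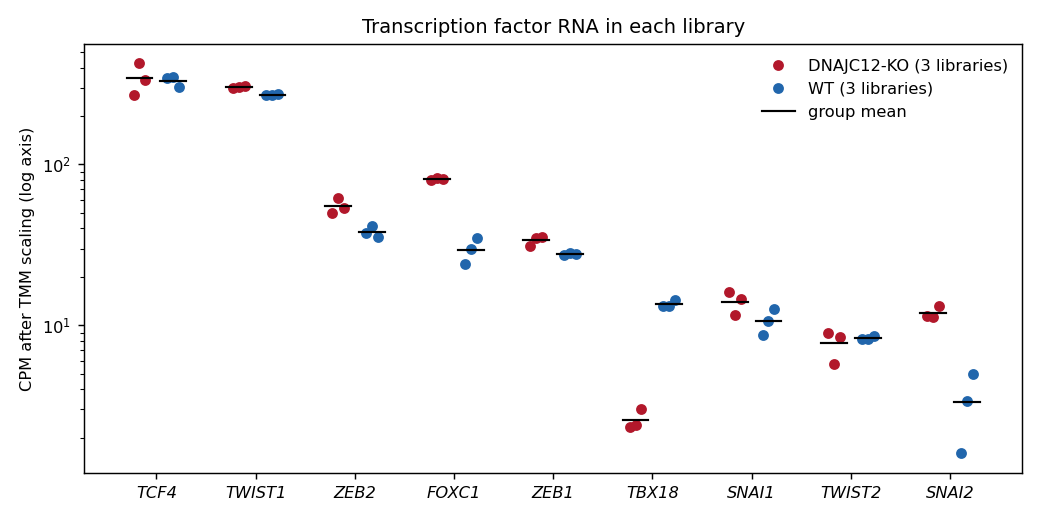
Level of each of the 9 factors in each library, in CPM scaled by TMM, a normalisation between libraries, on a shared log axis. Points are libraries and bars are group means, with DNAJC12-KO left of WT. SNAI2, FOXC1, ZEB2, ZEB1 and TWIST1 lie higher in all 3 DNAJC12-KO libraries, TBX18 lies lower, and SNAI1, TCF4 and TWIST2 overlap.

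SNAI2 (SLUG), on chromosome 8, encodes the neural crest member of the Snail family. It had 11.4, 11.3 and 13.2 CPM in DNAJC12-KO libraries, against 1.60, 3.40 and 4.96 CPM in WT libraries. Every DNAJC12-KO library was above every WT library, and the WT libraries were spread over a 3.10-fold range. The log2 fold change was 1.85 ± 0.30 (SE; edgeR, adjusted p = 0.000912), a fold of 3.61. It ran between 1.51 and 2.26 with 1 library left out, lowest without WT replicate 1 and highest without WT replicate 3. In bulk RNA, fewer cells expressing a gene and less RNA per cell cannot be told apart, here and for every gene below.

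SNAI1 (SNAIL), at chr20:49982980-49988886, is the other Snail factor of the set. It had 16.0, 11.5 and 14.6 CPM in DNAJC12-KO libraries, against 8.67, 10.6 and 12.6 CPM in WT libraries. DNAJC12-KO replicate 2 lay below WT replicate 3, so the groups overlapped. The difference of 0.40 ± 0.17 did not pass the test (edgeR, adjusted p = 0.108), and passed it without DNAJC12-KO replicate 2 (adjusted p = 0.0303). Set against each other on the TPM scale (a level per transcript length), SNAI2 was 0.617, 0.792 and 0.798 times SNAI1 in DNAJC12-KO libraries, against 0.151, 0.268 and 0.319 times in WT libraries. SNAI2 stayed under SNAI1 in all 6 libraries, and the gap was smaller in each DNAJC12-KO library than in any WT library.

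SNAI2, FOXC1, SNAI1 and TWIST2 were all lowest in WT replicate 1 and highest in WT replicate 3 among the WT libraries. That order was shared by 21.8% of the genes tested. SNAI1, SNAI2 and TWIST2 were also lowest in replicate 2 among the DNAJC12-KO libraries, as were 41.6% of genes, while FOXC1, ZEB2 and TCF4 were highest there, as were 38.4% of genes. The part of these library differences in the results was not tested.

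ZEB2, at chr2:144384081-144520119, had 49.8, 62.1 and 53.7 CPM in DNAJC12-KO libraries, against 37.5, 41.6 and 35.3 CPM in WT libraries. All DNAJC12-KO values lay above all WT values. The log2 fold change was 0.53 ± 0.10 (edgeR, adjusted p = 0.00310), a fold of 1.45.

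ZEB1, at chr10:31318417-31529804, the paralog of ZEB2, had 31.3, 34.7 and 35.5 CPM in DNAJC12-KO libraries, against 27.5, 28.0 and 27.7 CPM in WT libraries. The groups did not overlap, and the WT libraries lay within 1 CPM of each other. The log2 fold change was 0.29 ± 0.09 (edgeR, adjusted p = 0.0370), a fold of 1.22. This call was lost in 8 of 15 other settings. The edgeR adjusted p was 0.0592 without DNAJC12-KO replicate 2, 0.173 without DNAJC12-KO replicate 3, and 0.111, 0.112 and 0.0903 without WT replicates 1, 2 and 3. It was 0.0797 with library size as the only scaling, 0.0520 without the filter on low counts and 0.0574 with length-corrected counts. On the TPM scale ZEB2 was 1.87, 2.26 and 1.43 times ZEB1 in DNAJC12-KO libraries, against 1.26, 1.71 and 1.53 times in WT libraries. The balance of both genes overlapped between the groups, with ZEB2 above ZEB1 in every library.

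TWIST1, at chr7:19113047-19117636, was the most abundant of the factors per transcript length in either group. It had 300, 302 and 305 CPM in DNAJC12-KO libraries, against 271, 270 and 274 CPM in WT libraries. The values did not overlap and replicates lay close together, yet the difference of 0.15 ± 0.05 did not pass the test (edgeR, adjusted p = 0.0608), nor did it in any of 15 other settings (0.0512 to 0.231).

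TWIST2, at chr2:238848085-238910534, encodes a shorter TWIST protein. It had 8.91, 5.73 and 8.49 CPM in DNAJC12-KO libraries, against 8.18, 8.22 and 8.59 CPM in WT libraries. DNAJC12-KO replicate 2 was lowest of all and the other libraries were alike, with a difference of -0.11 ± 0.18 (edgeR, adjusted p = 0.700). Per length, TWIST1 was 31.7, 50.3 and 34.3 times TWIST2 in DNAJC12-KO libraries, against 31.9, 30.7 and 30.6 times in WT libraries.

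TCF4, at chr18:55222185-55635957, encodes the E protein also called E2-2, a dimer partner of bHLH factors. It had 271, 424 and 334 CPM in DNAJC12-KO libraries, against 343, 347 and 305 CPM in WT libraries. The DNAJC12-KO libraries held both the lowest and the highest value, and the WT values lay between them. The difference was 0.05 ± 0.13 (edgeR, adjusted p = 0.836) and turned to -0.13 without DNAJC12-KO replicate 2.

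FOXC1, at chr6:1609915-1613897, had 79.5, 81.9 and 80.6 CPM in DNAJC12-KO libraries, against 24.2, 29.6 and 34.9 CPM in WT libraries. The DNAJC12-KO libraries were nearly level, while the highest WT library was 1.44 times the lowest. The log2 fold change was 1.45 ± 0.12 (edgeR, adjusted p = 6.99e-06), a fold of 2.73. Among 14917 protein-coding genes ordered by TPM, FOXC1 stood at rank 3846 in DNAJC12-KO and at rank 7405 in WT.

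TBX18, at chr6:84732496-84764598, was the one factor that fell. It had 2.34, 2.41 and 3.03 CPM in DNAJC12-KO libraries, against 13.1, 13.1 and 14.3 CPM in WT libraries. No values overlapped, and the spread within either group was small beside the gap. The log2 fold change was -2.38 ± 0.16 (edgeR, adjusted p = 1.45e-06), so that DNAJC12-KO held 0.193 times the WT level. Counts from the transcript files, corrected for length, gave -1.85 (edgeR, adjusted p = 0.0146).

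PRRX1, at chr1:170662768-170739421, was given 1, 0 and 0 reads in DNAJC12-KO libraries, against 0, 4 and 2 reads in WT libraries. Its level was at most 0.0793 TPM in any library, and no fold is given at this depth.

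**Figure D2:**
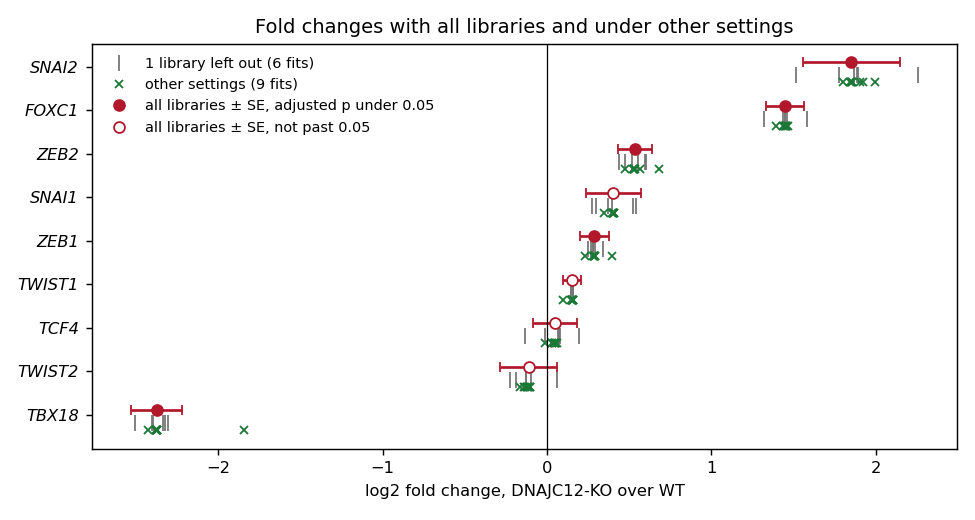
Log2 fold change of each factor, DNAJC12-KO over WT, with all libraries (circle, bars are ± SE, filled where the adjusted p was under 0.05), with each library left out in turn (grey ticks) and under 9 other settings (green crosses). SNAI2, FOXC1 and ZEB2 stay right of 0 and TBX18 left of 0 throughout, while TCF4 and TWIST2 lie on both sides.

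FOXC1, SNAI2, TBX18 and ZEB2 passed the test in all 15 other settings. The fold change of FOXC1 ran between 1.32 and 1.58 on the log2 scale, that of ZEB2 between 0.44 and 0.68, and that of TBX18 between -2.50 and -1.85.

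On the TPM scale the levels were far apart and the order differed between the groups. In DNAJC12-KO libraries TWIST1 (350 ± 5) stood first, followed by TCF4 (95.3 ± 22.2), FOXC1 (32.8 ± 0.9) and ZEB2 (17.6 ± 3.1 TPM; SD, n = 3). SNAI1 (11.7 ± 1.8), ZEB1 (9.66 ± 1.28), TWIST2 (9.40 ± 2.10) and SNAI2 (8.49 ± 1.07 TPM) came next, and each overlapped its neighbour in this order. TBX18 (1.29 ± 0.81 TPM) and PRRX1 came last.

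In WT libraries TWIST1 (329 ± 6) and TCF4 (95.7 ± 12.2 TPM) again stood first. FOXC1 (12.6 ± 2.1), ZEB2 (11.5 ± 1.3), TWIST2 (10.6 ± 0.1), SNAI1 (9.24 ± 1.60) and ZEB1 (7.70 ± 0.33 TPM) followed, each overlapping its neighbour. Below these came TBX18 (4.85 ± 0.78), SNAI2 (2.37 ± 1.15 TPM) and PRRX1. FOXC1 thus stood clear of ZEB2 in DNAJC12-KO but not in WT, and SNAI2 stood above TBX18 in DNAJC12-KO and below it in WT.

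TWIST1 made up 62.8% to 67.4% of the summed TPM of the 10 genes in DNAJC12-KO libraries, against 67.1% to 69.1% in WT libraries. The sum itself was 511, 561 and 538 TPM in DNAJC12-KO libraries, against 493, 490 and 468 TPM in WT libraries. TWIST1 ranked 303 among 14917 protein-coding genes in DNAJC12-KO and 338 in WT, while SNAI2 ranked 8628 in DNAJC12-KO and 11338 in WT.

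**Figure D3:**
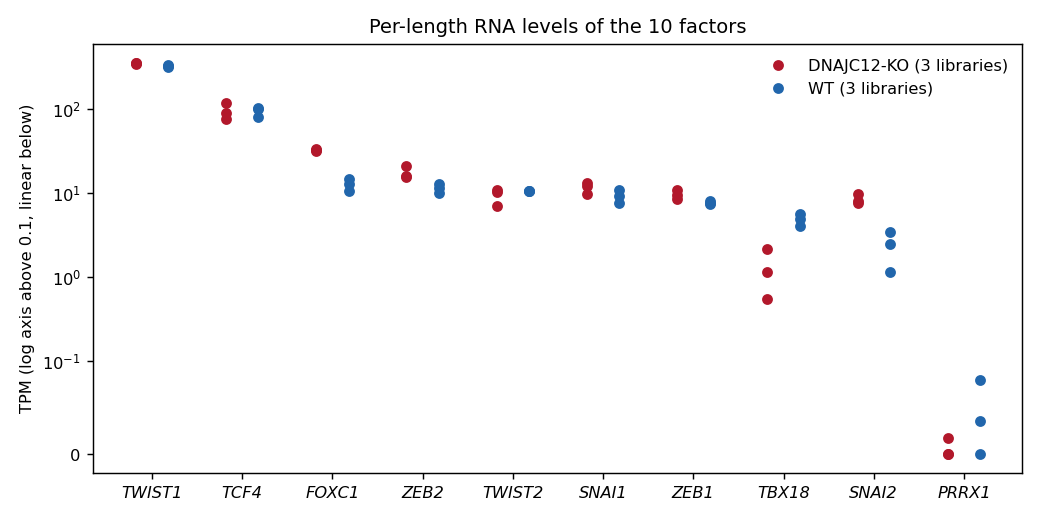
Level of the 10 factors in TPM on a log axis that turns linear at the lowest levels, where PRRX1 lies. Each library is a point, with DNAJC12-KO left of WT for each gene. TWIST1 stands above every other factor in both groups, FOXC1 and SNAI2 stand higher in DNAJC12-KO, TBX18 stands lower, and PRRX1 reaches at most 0.0793 TPM.

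The transcript files divide reads among annotated isoforms by estimate, and the tests did not model the uncertainty of that division. Of 186 annotated transcripts of the 10 genes (GENCODE 29) 104 had reads in some library, 37 were tested and 3 passed, 2 higher and 1 lower in DNAJC12-KO, beside 2.76% of 52233 transcripts tested (1.70% higher and 1.06% lower). FOXC1-202, the one annotated FOXC1 transcript, was higher by 1.43 ± 0.14 on the log2 scale (edgeR, adjusted p = 0.00902). TBX18-202, protein coding, had 0.400, 0.556 and 0.627 TPM in DNAJC12-KO libraries, against 2.87, 2.94 and 3.23 TPM in WT libraries, a difference of -2.47 ± 0.26 (edgeR, adjusted p = 0.0114). FOXC1-202 holds all of FOXC1's reads and TBX18-202 most of TBX18's, so these transcript results largely repeat those of the genes.

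The other transcript called was ZEB2-229, protein coding, named here after its values were seen. It was given 26.0, 28.4 and 21.0 reads in DNAJC12-KO libraries and is listed at 0 in all 3 WT libraries (edgeR, adjusted p = 0.0489). It was 3.74% of ZEB2's TPM in DNAJC12-KO. Transcript calls rested on few libraries. FOXC1-202 lost its call without DNAJC12-KO replicate 3 (edgeR, adjusted p = 0.0663) and WT replicate 2 (0.0585). TBX18-202 kept its call without DNAJC12-KO replicate 1 (0.0356) and lost it without any other library (0.0536 to 0.0611). ZEB2-229 lost its call without any 1 library (0.108 to 0.227).

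The main ZEB1 transcript, ZEB1-201, had 6.05, 7.10 and 8.12 TPM in DNAJC12-KO libraries, against 4.90, 4.73 and 3.84 TPM in WT libraries, without overlap. Its difference was 0.71 ± 0.15 (edgeR, adjusted p = 0.0854). ZEB2-204, the main ZEB2 transcript, had 6.66, 7.09 and 6.91 TPM in DNAJC12-KO libraries, against 5.18, 5.66 and 4.77 TPM in WT libraries (0.46 ± 0.10; edgeR, adjusted p = 0.0816). Neither passed, although no values overlapped. SNAI2-201, with 88.2% of SNAI2's TPM in DNAJC12-KO and 91.0% in WT, differed by 1.84 ± 0.45 (edgeR, adjusted p = 0.128).

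TWIST1-201, the coding transcript, had 306, 318 and 313 TPM in DNAJC12-KO libraries, against 298, 297 and 296 TPM in WT libraries (0.13 ± 0.04; edgeR, adjusted p = 0.212). TWIST1-202, annotated as a target of nonsense-mediated decay and named after its values were seen, had 29.8, 26.9 and 29.2 TPM in DNAJC12-KO libraries, against 16.7, 18.99 and 13.4 TPM in WT libraries. It was 8.18% of TWIST1's TPM in DNAJC12-KO and 4.97% in WT, and did not pass the test (0.87 ± 0.23; edgeR, adjusted p = 0.144).

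TCF4 has many alternative 5′ ends, and its 90 annotated transcripts were grouped by 5′ ends lying within 5 kb of the next, numbered in the direction of transcription. Region 13 (chr18:55320881-55322345) gave 21.6%, 19.9% and 37.5% of TCF4's TPM in DNAJC12-KO libraries, against 43.8%, 30.9% and 43.9% in WT libraries. Region 12 (chr18:55351316-55352023) gave 32.6%, 34.0% and 20.1% in DNAJC12-KO libraries, against 17.3%, 23.0% and 16.0% in WT libraries. DNAJC12-KO replicates 1 and 2 stood apart from the WT libraries in both regions, while DNAJC12-KO replicate 3 lay among them, so the groups overlapped. Region 3 (chr18:55585481-55591279) gave 20.9%, 19.9% and 17.05% in DNAJC12-KO libraries, against 16.4%, 23.1% and 14.7% in WT libraries. None of TCF4's 18 transcripts tested passed in edgeR, where 1 had an unadjusted p under 0.05, and DESeq2 called 1.

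**Figure D4:**
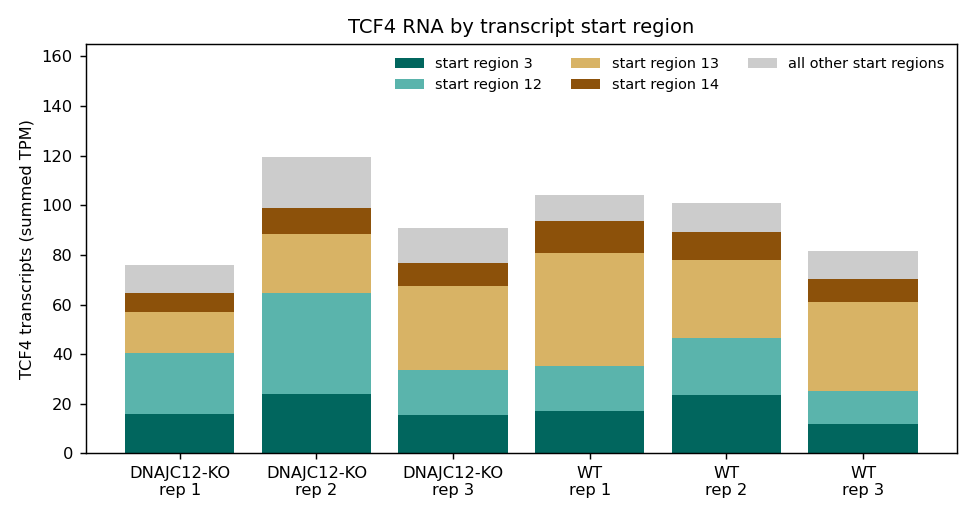
TCF4 RNA in each library in TPM, stacked by the region in which its transcripts start, with DNAJC12-KO libraries left of WT libraries. Region 12 is larger and region 13 smaller in DNAJC12-KO replicates 1 and 2 than in WT, and DNAJC12-KO replicate 3 resembles WT.

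Genes whose lower RefSeq coordinate lies inside a factor's gene or within 1 Mb of either end of it were counted as neighbours. The share to set beside the counts for every factor was 26.0% called over all genes tested, 14.5% higher and 11.5% lower. Of the 2 tested beside FOXC1, GMDS, an enzyme of GDP-fucose synthesis, was higher in DNAJC12-KO (18.3 ± 1.5 CPM, against 10.2 ± 0.7 CPM in WT; SD, n = 3 each; edgeR, adjusted p = 0.000307). Of the 8 beside TBX18, SNHG5 was higher (0.35 ± 0.07; edgeR, adjusted p = 0.00293). Its call was lost with counts from the transcript files, summed (0.421) or length-corrected (0.302). MRAP2 was lower (-0.56 ± 0.08; edgeR, adjusted p = 0.000454), and NT5E, which encodes the ectonucleotidase CD73, was lower at 34.5 ± 5.6 CPM in DNAJC12-KO, against 121 ± 14 CPM in WT (edgeR, adjusted p = 1.89e-06). The other 5 neighbours did not pass, and the median log2 fold change of the 8 was -0.09. Whether the changes of TBX18 and its neighbours are linked was not tested.

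Beside ZEB1 (8 tested) and TWIST2 (11 tested) 0 neighbours passed in edgeR, DESeq2 or limma-voom, and 0 had an unadjusted p under 0.05. ZEB2 had no neighbour that could be tested. Of the 3 beside SNAI2 and the 6 beside PRRX1, 1 each was higher, RPL29P19, a ribosomal protein pseudogene, and PRRC2C. The call of RPL29P19 was lost without any 1 library (edgeR, adjusted p = 0.0506 to 0.0969). It was also lost in DESeq2 (adjusted p = 0.0653) and with length-corrected counts in edgeR (0.0519). PRRC2C lost its edgeR call without DNAJC12-KO replicate 2 (0.0804) or 3 (0.104) or WT replicate 1 (0.0906) or 3 (0.120). It also did so with library size as the only scaling (0.0946) and with summed transcript-file counts (0.0604). Of the 2 beside TWIST1, RPL21P75, another such pseudogene, had 0 counts over the DNAJC12-KO libraries and 39 over the WT libraries, at least 13.4-fold lower. Counts of such pseudogenes are uncertain, since their reads may be shared with the parent gene. Beside TCF4, 2 of 6 were higher, RAB27B (1.40 ± 0.35; edgeR, adjusted p = 0.0140, 0.0548 without DNAJC12-KO replicate 3 and 0.0592 without WT replicate 3) and CCDC68. CCDC68 had 62 counts over the 3 DNAJC12-KO libraries and 0 over the 3 WT libraries, at least 20.02-fold higher taking 3 counts in the whole WT group as the floor. Of the 24 beside SNAI1, 1 was higher and 5 were lower, beside 26.0% of all genes tested called in either direction. These neighbours were named after their values were seen.

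Of 29 epithelial genes that the factors are known to repress, 19 had a row and 16 were tested. Of these 16, 3 were higher in DNAJC12-KO, 3 were lower and 10 missed the threshold. Their median log2 fold change was 0.04. The share to set beside these counts, and those of each list below, was 14.5% higher and 11.5% lower over all genes tested. KRT18 and KRT8, keratins of simple epithelia, were higher at 69.97 ± 3.92 and 14.6 ± 1.9 CPM in DNAJC12-KO, against 8.85 ± 0.32 and 1.52 ± 0.05 CPM in WT (SD, n = 3 each). CLDN4, a tight junction claudin, was lower at 3.32 ± 0.32 CPM in DNAJC12-KO, against 10.9 ± 1.4 CPM in WT, and LLGL2, a cell polarity gene, was lower by -1.07 ± 0.13 on the log2 scale. CDH3 (2.88 ± 0.48), which encodes P-cadherin, and PATJ (-0.41 ± 0.13) also passed and were named after their values were seen. PATJ lost its call without DNAJC12-KO replicate 1 (edgeR, adjusted p = 0.0509) or 3 (0.162) or WT replicate 1 (0.142) or 2 (0.115), and with transcript-file counts, summed (0.0597) or length-corrected (0.0902). CDH1 had 1, 6 and 3 counts in DNAJC12-KO libraries, against 0, 1 and 1 counts in WT libraries, and was too low to test.

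Of 22 mesenchymal genes known to rise in the transition, 13 were higher in DNAJC12-KO, 4 were lower and 5 missed the threshold (median 0.62). TAGLN, an actin-binding protein of smooth muscle and myofibroblasts, had 229 ± 24 CPM in DNAJC12-KO, against 8.36 ± 0.88 CPM in WT. ACTA2, smooth muscle actin, had 56.1 ± 7.0 CPM in DNAJC12-KO, against 8.90 ± 0.48 CPM in WT, and COL3A1, a fibrillar collagen, had 1642 ± 29 CPM in DNAJC12-KO, against 641 ± 20 CPM in WT. DCN (decorin), a matrix proteoglycan, went the other way with 20.7 ± 1.2 CPM in DNAJC12-KO, against 159 ± 8 CPM in WT (edgeR, adjusted p = 5.99e-09). N-cadherin, encoded by CDH2 and named after its values were seen, was also lower (-0.33 ± 0.08; edgeR, adjusted p = 0.0132). It missed the threshold without DNAJC12-KO replicate 3 (0.0505), WT replicate 2 (0.0565) or WT replicate 3 (0.0572).

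**Figure D5:**
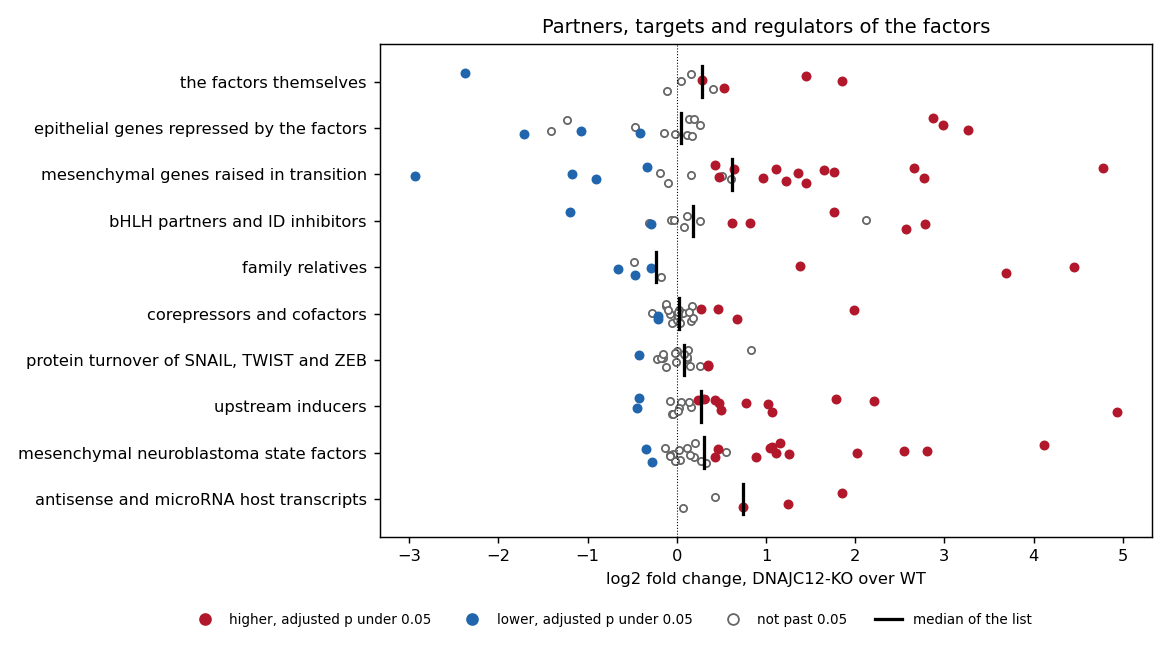
Log2 fold change, DNAJC12-KO over WT, of the factors and of genes that they work with, act on or are regulated by. Each point is a gene, red where higher and blue where lower at an edgeR adjusted p under 0.05, open where it did not pass, and each bar is the median of a list. The mesenchymal genes have a median of 0.62 and the epithelial genes 0.04.

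Among bHLH partners of TWIST and TCF4 and the ID proteins that block them, 5 of 14 were higher and 2 lower (median 0.19). NEUROG2, a proneural factor, had 32.5 ± 5.3 CPM in DNAJC12-KO, against 5.46 ± 0.58 CPM in WT. HAND1 (0.61 ± 0.08), an autonomic bHLH factor, and ID2 (0.82 ± 0.18), an inhibitor of E proteins, were higher too. The E protein genes TCF3 (-0.07 ± 0.06) and TCF12 (0.09 ± 0.10), named after their values were seen, did not pass, as TCF4 did not.

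Of 17 relatives from the same families 8 were tested, with 3 higher and 3 lower (median -0.23). SCRT1 and SCRT2, neural Snail-superfamily repressors, had 4.61 ± 0.62 and 2.67 ± 0.58 CPM in DNAJC12-KO, against 0.356 ± 0.266 and 0.115 ± 0.102 CPM in WT, the last below the level of 3 counts in a library. TBX3, a T-box repressor, was higher (1.38 ± 0.19; edgeR, adjusted p = 0.000385). PRRX2, the paralog of PRRX1, was lower at 15.2 ± 1.9 CPM in DNAJC12-KO, against 21.0 ± 0.3 CPM in WT (edgeR, adjusted p = 0.0115).

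Of 22 upstream inducers 11 were higher and 2 lower (median 0.27). TGFB2, a TGF-beta ligand, had 61.1 ± 10.2 CPM in DNAJC12-KO, against 1.99 ± 0.09 CPM in WT (edgeR, adjusted p = 1.25e-08). JAG1, a Notch ligand, had 24.6 ± 2.1 CPM in DNAJC12-KO, against 5.34 ± 0.54 CPM in WT. SMAD3, which carries TGF-beta signals to the nucleus, was higher by 1.07 ± 0.08 on the log2 scale, and WNT5A, a ligand of non-canonical Wnt signalling, by 1.78 ± 0.17. TGFB1 (-0.43 ± 0.11) and NOTCH3 (-0.44 ± 0.07) were lower and were named after their values were seen. TGFB1 missed the threshold without WT replicate 2 (edgeR, adjusted p = 0.0545) or 3 (0.0520). Without WT replicate 2 the list held 8 calls in all, against 13 with every library.

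Of 23 corepressors and cofactors 4 were higher and 2 lower (median 0.02), beside 26.0% of all genes tested called in either direction. WTIP, an Ajuba family LIM protein that binds Snail proteins, had 24.5 ± 2.9 CPM in DNAJC12-KO, against 6.17 ± 0.52 CPM in WT. Its relative AJUBA (0.46 ± 0.08), SMARCA4 (0.28 ± 0.06), the chromatin remodeller that ZEB1 recruits, and KAT2B (0.67 ± 0.19), an acetyltransferase, were higher. AJUBA did not pass with length-corrected counts (edgeR, adjusted p = 0.163). KAT2B lost its call without DNAJC12-KO replicate 2 (0.0535), DNAJC12-KO replicate 3 (0.0993), WT replicate 1 (0.0690) or WT replicate 3 (0.0833), and with length-corrected counts (0.0540). The list held 3 calls in place of 6 without DNAJC12-KO replicate 3, WT replicate 1 or WT replicate 3.

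Of 19 genes that set the turnover of SNAIL, TWIST and ZEB proteins, 2 were higher and 1 lower (median 0.08). Most genes of the whole series did not pass either, with 26.0% of those tested called. FBXO11 (0.35 ± 0.08), a ubiquitin ligase subunit for Snail proteins, and GSK3B (0.35 ± 0.09), a kinase that marks SNAI1 for degradation, were higher, and FBXO45 (-0.43 ± 0.11) was lower. FBXO11 lost its call without DNAJC12-KO replicate 3 (edgeR, adjusted p = 0.0509), and GSK3B without DNAJC12-KO replicate 3 (0.0579) or WT replicate 3 (0.0610). With counts from the transcript files neither passed, at 0.159 (summed) and 0.211 (length-corrected) for FBXO11 and 0.163 and 0.331 for GSK3B. FBXO45 lost its call without WT replicate 2 (0.0613) or WT replicate 3 (0.0685). The list held 1 call without DNAJC12-KO replicate 3 or WT replicate 3.

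Among other factors of the mesenchymal neuroblastoma state, 12 of 28 were higher and 2 lower (median 0.30). RUNX1 had 8.54 ± 1.505 CPM in DNAJC12-KO, against 0.489 ± 0.297 CPM in WT. GLIS3, a Krüppel-like zinc finger factor, had 11.4 ± 1.6 CPM in DNAJC12-KO, against 1.94 ± 0.64 CPM in WT, and MAML2, a Notch coactivator, had 27.7 ± 0.2 CPM in DNAJC12-KO, against 12.4 ± 1.5 CPM in WT. SMAD3 belongs to this list as well.

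Of 5 antisense and microRNA host transcripts tested 3 were higher (median 0.74). MIR100HG had 20.9 ± 3.7 CPM in DNAJC12-KO, against 5.79 ± 0.87 CPM in WT, DNM3OS, the host of miR-199a and miR-214, had 16.2 ± 1.1 CPM in DNAJC12-KO, against 6.82 ± 0.48 CPM in WT, and MIR22HG differed by 0.74 ± 0.18 (edgeR, adjusted p = 0.0119, and 0.0564 with length-corrected counts). ZEB1-AS1 had 6.44 ± 0.33 CPM in DNAJC12-KO, against 6.13 ± 0.81 CPM in WT, and did not pass. No source used here gives the strand setting of the counting, so that antisense and sense reads may not be separated.

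Cell type markers were read beside these levels. Of 16 sympathetic markers 14 were tested, 5 higher and 6 lower. Their summed level was 4617 to 4712 CPM in DNAJC12-KO, against 5134 to 5335 CPM in WT. This sum joins markers that moved in opposite directions. CHGB was lower at 156 ± 16 CPM in DNAJC12-KO, against 729 ± 63 CPM in WT (SD, n = 3 each). CHGA and ELAVL4 were higher at 344 ± 14 and 230 ± 11 CPM in DNAJC12-KO, against 105 ± 11 and 53.6 ± 6.9 CPM in WT. TH, the tyrosine hydroxylase gene, had no row. Of 8 fibroblast markers 4 were higher and 2 lower, with DCN and LUM lower and PDGFRA and FAP higher, and the sum overlapped at 624 to 752 CPM in DNAJC12-KO, against 655 to 710 CPM in WT. Schwann and glial markers summed to 7.37 to 8.35 CPM in DNAJC12-KO, against 7.72 to 9.68 CPM in WT, with 4 of 6 tested, 1 of them lower (ERBB3, lost in 7 of 15 other settings, with an edgeR adjusted p of 0.101, 0.161, 0.193, 0.0792 and 0.0535 without DNAJC12-KO replicates 2 and 3 and WT replicates 1, 2 and 3). SOX10 and FOXD3, which define glial and early neural crest cells, had no row. Epithelial, endothelial and blood markers summed to 1.83 to 2.44 CPM in DNAJC12-KO, against 1.26 to 2.69 CPM in WT, and of the 2 of 7 tested 0 passed or had an unadjusted p under 0.05 in edgeR, DESeq2 or limma-voom. The part of these shifts in the levels of the factors was not tested.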

How the data were processed

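RNA-seq libraries of SH-SY5Y cells (3 DNAJC12-KO, 3 WT) were compared. Per the labels' protocols, ribosomal RNA was removed and stranded, randomly primed libraries were made. Salmon 1.10.0, cutadapt 3.5, DESeq2 1.42.1 and FastQC are named in the submitters' processing notes, with the build GRCh38.p14. The annotation release and strand setting are not given in the sources used here. The authors deposited a gene table of counts, whole and not normalized, from which 403 repeated rows were removed. Per the file headers, the deposited transcript files hold an estimated count and a TPM value for each transcript. Of 251955 transcripts 201667 matched GENCODE 29 by identifier. Rounded counts of all transcripts that passed the filter, matched or not, were tested as well.

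Genes kept by filterByExpr were TMM-scaled, and genotypes were compared by the quasi-likelihood F-test of edgeR 4.0.16 (R 4.3.3), 2-sided, with Benjamini-Hochberg adjustment over all 16403 genes at 0.05. CPM values are TMM-scaled. SE is the size of the log2 fold change divided by the root of F. Neighbours and promoters came from RefSeq tables. Every pair of replicates differed beyond sampling noise (mean chi-square over genes of 4.37 to 22.7). The floor of 3 counts covers counting error only.

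Text names all 10 factors, of each list the 4 genes past the threshold with the smallest adjusted p, and transcripts drawn mainly from those with at least 10% of a factor's TPM in 1 group. Of the genes named by this rule 1 is not reported here, and list counts include it. The factors, lists and tests were chosen with earlier results of these data known. Alternatives were DESeq2 1.42.0, limma-voom (limma 3.58.1), other scalings and filters, transcript-file counts, a replicate block and each library left out. The test was tested on simulated data.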

Additional observations from a re-analysis of the deposited data

How the results depend on the processing

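Over 15 other settings the 9 factors kept direction and call in 122 of 135 refits. ZEB1 lost its call in 8 and SNAI1 passed in 1. The sign turned in 4, all of values that had not passed: TWIST2 ran between -0.2264 and 0.0617 with a library left out (above 0 without DNAJC12-KO replicate 2), and TCF4 between -0.1329 and 0.1939 (below 0 without DNAJC12-KO replicate 2 or WT replicate 3), while TCF4 was -0.0097 with library size as the only scaling. Genes of the lists named by rule lost their call in 23 refits and none turned. Genes called ran between 2851 (length-corrected counts) and 4772 (without DNAJC12-KO replicate 1). Genes called lower numbered 1221 with length-corrected counts and 1208 to 2150 with a library left out (fewest without DNAJC12-KO replicate 3), against 1887 with all libraries. With library size as the only scaling 2055 genes were higher and 2438 lower, in place of 2383 and 1887. With length-corrected counts 3 corepressors and 9 mesenchymal state factors were called, against 6 and 14. Leaving out a library gave 3 to 7 corepressors, 1 to 3 turnover genes and 8 to 13 inducers called. Transcript calls moved most, with 1441 in edgeR, 5722 in DESeq2 and 221 to 585 with a library left out, and for the factors' transcripts 3, 9 and 0 to 2. Why they moved was not tested.

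Same-numbered libraries deviated from their group means with correlations of 0.059, -0.030 and -0.065, which gave no sign of pairing. The labels do not say whether libraries were paired, and these correlations cannot settle it. With a replicate block 4565 genes (4270 without it), 5 factors, 55 transcripts and 0 of the factors' transcripts were called. At the depth of these libraries, PRRX1, with at most 4 reads in a library, could not be compared.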
